A study of Mus musculus with 18 samples.

Results

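The genes described here are 8 genes linked to eosinophils and to the alternative activation of macrophages: Retnla, Rnase2a, Epx, Prg2, Ccr3, Arg1, Il5ra and Il4ra. They were chosen by their symbols, as 8 of the 22180 genes measured on whole-transcript arrays of mouse ileum, by a rule that would take the probe set with the highest mean over the 18 arrays. Each symbol had only 1 probe set, so that rule made no choice. The list itself was put together with earlier results of these arrays known, so the calls below describe these mice and are not independent evidence about the list.

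All 18 mice were B10.BR recipients, 8 to 12 weeks old at transplant, that had received 11 Gy of total body irradiation and then allogeneic C57Bl/6 marrow depleted of T cells. In the marrow-only groups nothing else was transplanted, and 4 of these mice were given vehicle (20% DMSO, 40% PEG400 and 2% citric acid) and 5 were given indole-3-carboxaldehyde (ICA), an indole known to bind the aryl hydrocarbon receptor, by gavage each day at 150 mg/kg. In the T cell groups purified donor T cells were added to the graft, which causes graft-versus-host disease, and 4 of these mice were given vehicle and 5 ICA. Gavage ran from the day before transplant until ileum was taken 21 days after it, and 1 array was hybridised per mouse. No group went without irradiation or transplant, so every comparison is within transplanted mice, and the T cell model stands for 1 pair of strains.

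Eosinophils are granulocytes of type 2 immunity that live in the lamina propria of the healthy gut. They mature under IL-5, are drawn into tissue by eotaxins through CCR3, and store cationic proteins in their granules. Macrophages exposed to IL-4 or IL-13 signal through IL4RA and the transcription factor STAT6 and switch on Retnla, Arg1, Chil3 and Mrc1, a state called alternative activation. Eosinophils themselves can also make Retnla, and arginase is made by several cell types, so in a piece of whole ileum none of these transcripts belongs to 1 cell type alone. Fewer cells of a type and less RNA per cell cannot be told apart in such arrays.

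The granule and receptor genes of eosinophils had low signals, and of these Ccr3 alone passed in a comparison. By mean signal over the 18 arrays, Epx lay at the 26.7th percentile of all genes, Prg2 at the 25.8th, Il5ra at the 15.7th and Ccr3 at the 10.7th. Of the other eosinophil genes, Siglecf lay at the 44.5th percentile, Prg3 at the 20.8th and Ear6 at the 6.18th. A probe set's signal also depends on its probes, so these places are no measure of transcript number, and the deposited values carry no detection call. By contrast the ileal genes Fabp6 (the ileal bile acid-binding protein) and Slc10a2 (the ileal bile acid transporter) lay at the 99.7th and 97.3rd percentiles. Most of the variation was in Retnla, Rnase2a and Arg1, whose SDs over the 18 mice were 1.66, 1.68 and 0.69 in log2, larger than those of 99.95%, 99.96% and 99.3% of genes. The remaining 5 had smaller SDs that were still above that of the median gene, at 0.38 for Ccr3 (95.9th percentile of genes), 0.24 for Epx (80.5th), 0.23 for Il4ra (78.0th), 0.20 for Il5ra (69.3rd) and 0.20 for Prg2 (67.7th). Epx, Prg2 and Il5ra, genes of eosinophil granules and of the IL-5 receptor, passed in no comparison. The group is thus named here for what its genes are known for and not for a measured eosinophil signal.

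**Figure D1:**
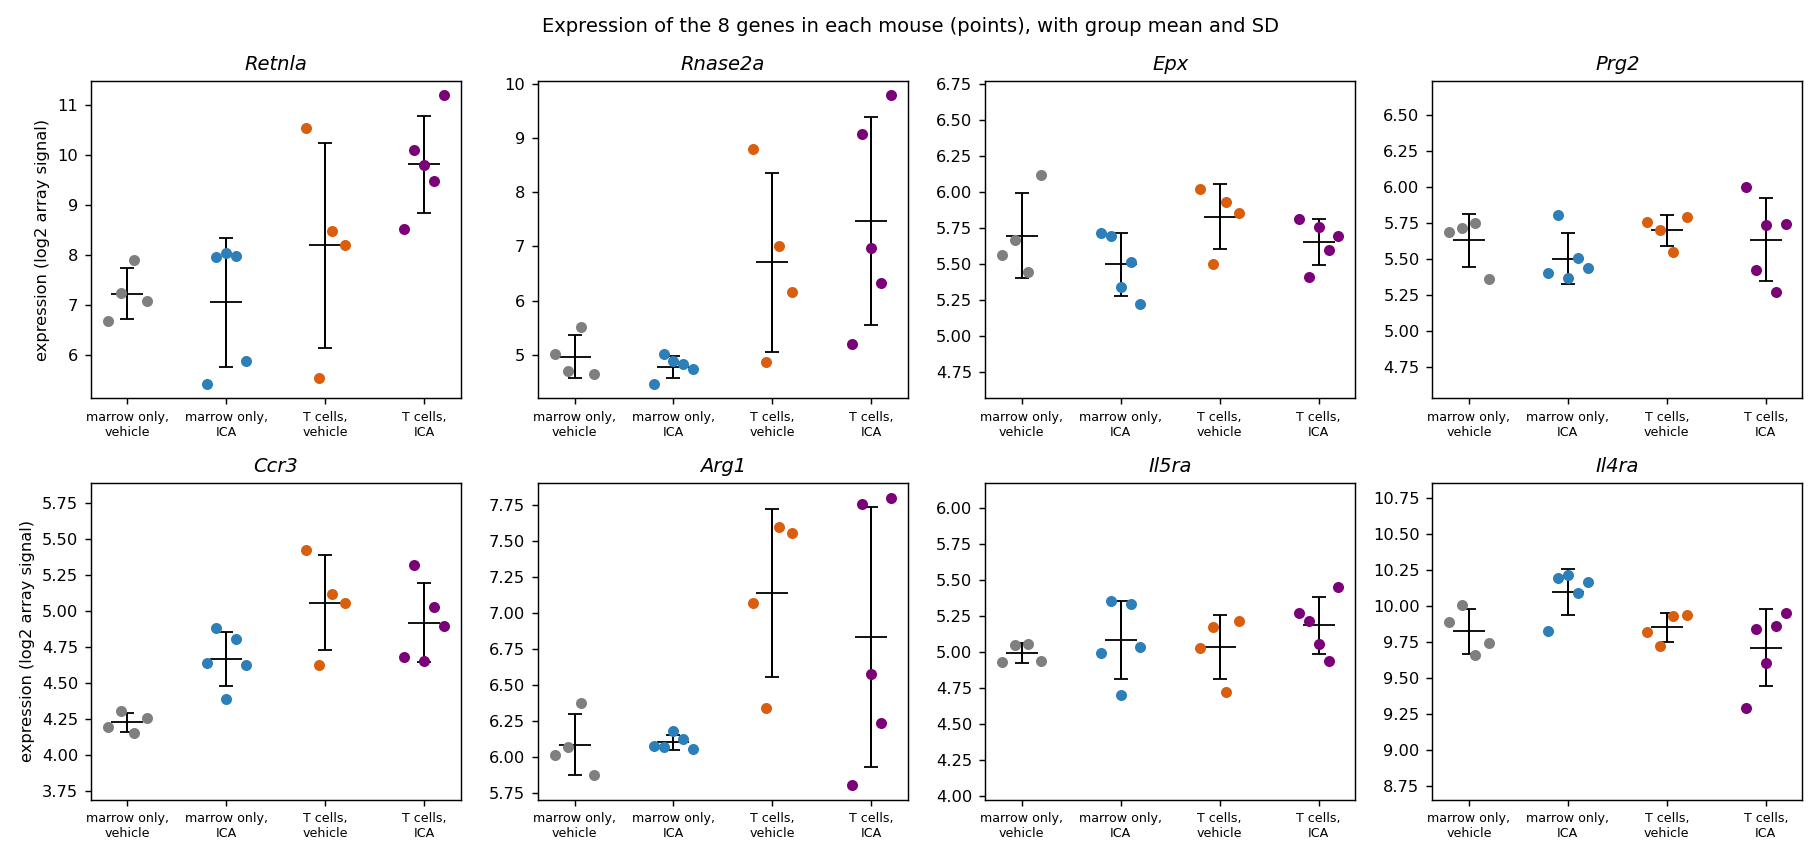
Expression of the 8 genes in each mouse (points, log2 array signal on the vertical axis, each panel with its own range), with the group mean (bar) and SD (whiskers) for 4 or 5 mice a group. Among T cell mice Retnla and Rnase2a spread over several log2 units and Arg1 from 5.81 to 7.80, while Epx, Prg2 and Il5ra lie within 1 log2 unit in all groups.

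Retnla encodes RELM-alpha, a small secreted protein of the resistin family that is a classic product of alternatively activated macrophages. In marrow-only mice given vehicle its log2 signal was 6.67, 7.23, 7.90 and 7.08 in mice 1 to 4. In marrow-only mice given ICA it was 5.42, 7.96, 8.03, 7.96 and 5.88 in mice 1 to 5. With T cells and vehicle the values were 10.54, 5.54, 8.47 and 8.20. With T cells and ICA they were 8.52, 10.08, 9.79, 9.47 and 11.19. All 5 T cell mice given ICA were thus above all 9 marrow-only mice. T cell mice given vehicle covered nearly the whole range of the series, with mouse 1 among the highest and mouse 2 among the lowest values. Between the arms under ICA, Retnla was higher with T cells by 2.76 ± 0.69 (SE), or 6.76-fold, with an adjusted p of 0.0313. Under vehicle the difference was 0.97 ± 0.77 (adjusted p = 0.669), with a 95% interval from -0.64 to 2.57. It was 0.18 without T cell vehicle mouse 1 and 1.85 without T cell vehicle mouse 2.

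Rnase2a, also known as Ear11, encodes a secreted ribonuclease of the eosinophil-associated family. Its signal was 5.01, 4.70, 5.51 and 4.65 in marrow-only mice given vehicle and 4.47, 5.01, 4.89, 4.83 and 4.73 in those given ICA. With T cells, mice on vehicle had 8.80, 4.86, 7.01 and 6.16, and T cell mice given ICA had 5.20, 9.08, 6.97, 6.33 and 9.78. The 9 marrow-only mice thus kept within about 1 log2 unit, while the T cell mice ran from the marrow-only level to values several log2 units higher. The mean signal of Rnase2a lay at the 33.8th percentile of genes. Its marrow-only means, 4.97 with vehicle and 4.78 with ICA, were below the mean of Il5ra over all arrays, 5.08. At such low signals a small spread does not show a constant transcript level, and the fold below is one of array signal. Under ICA, Rnase2a rose with T cells by 2.69 ± 0.69 or 6.43-fold (adjusted p = 0.0345), and the ranges of the arms did not overlap when both groups had ICA. Under vehicle the difference was 1.74 ± 0.77 (adjusted p = 0.328), with T cell mouse 2 within the marrow-only range. With ICA its SD was 0.20 without T cells and 1.91 with them, and the model assumes 1 shared spread. The calls of both genes lay near the threshold. Over 10 omissions of a mouse the call was kept in 5 for Retnla and in 3 for Rnase2a. The differences ran from 2.35 to 3.08 for Retnla and from 2.11 to 3.25 for Rnase2a. Retnla lost its call without marrow-only ICA mouse 5 or T cell ICA mouse 2, 3, 4 or 5 (adjusted p up to 0.0991). Rnase2a lost it without marrow-only ICA mouse 2, 3, 4 or 5 or T cell ICA mouse 2, 3 or 5 (adjusted p up to 0.104). With only the 2 groups in the model, Rnase2a had an adjusted p of 0.0573, and with a robust prior Retnla had 0.0920 and Rnase2a 0.0986.

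Of 4 ribonucleases of the same family 0 passed. Rnase2b, Ear6, Ear10 and Ear14 differed between T cell and marrow-only mice given ICA by 0.47 ± 0.19, 0.03 ± 0.14, 0.20 ± 0.17 and -0.10 ± 0.11 (lowest adjusted p = 0.206, and 1 of 4, Rnase2b, with an unadjusted p under 0.05). Under vehicle the mean of Rnase2b was lower with T cells, at 5.28 against 5.63 in marrow-only mice. For Ear6, Ear10 and Ear14 these means were 4.29 against 4.32, 3.26 against 3.31 and 4.94 against 4.96. Of the resistin family, Retnlg, a neutrophil product, rose with T cells under vehicle by 2.20 ± 0.39 (adjusted p = 0.00565) but differed by 0.74 ± 0.34 under ICA. Retnlb, the RELM-beta of goblet cells, differed by -0.31 ± 0.93 under vehicle and -1.32 ± 0.83 under ICA (adjusted p = 0.934 and 0.460). Probes of such related genes can share targets, which was not tested here.

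The promoters of Retnla and Rnase2a are shown because these genes also moved together from mouse to mouse, as described further on. Both are from RefSeq on build GRCm38.p6, run from 250 bases before to 50 bases after the annotated start of the gene, and are written 5′ to 3′ on the strand of the gene. Capitals mark matches to a STAT6-type motif (TTCNNNNGAA), a GATA motif (AGATAA or TGATAA), a C/EBP-type motif (TTGCNNAA) or a PU.1 core (GGAAGT), on either strand. The Retnla promoter lies on the plus strand at chr16:48842359-48842658 and the Rnase2a promoter on the minus strand at chr14:51256063-51256362.
Retnla: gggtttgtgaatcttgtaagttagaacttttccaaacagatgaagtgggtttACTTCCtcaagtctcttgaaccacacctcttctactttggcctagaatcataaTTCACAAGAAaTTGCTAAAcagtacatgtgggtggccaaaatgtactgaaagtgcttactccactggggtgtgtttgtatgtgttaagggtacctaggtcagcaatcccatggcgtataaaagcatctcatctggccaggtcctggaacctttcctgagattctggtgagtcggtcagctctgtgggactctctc
Rnase2a: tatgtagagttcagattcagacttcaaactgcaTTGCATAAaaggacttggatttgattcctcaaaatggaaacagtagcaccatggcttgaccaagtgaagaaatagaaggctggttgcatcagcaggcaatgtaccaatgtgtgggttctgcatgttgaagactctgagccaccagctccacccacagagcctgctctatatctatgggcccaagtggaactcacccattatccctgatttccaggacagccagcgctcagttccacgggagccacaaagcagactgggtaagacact
In the Retnla promoter a STAT6-type match began at position -145 from the start. It lay between a PU.1 core at position -198 from the start and a C/EBP-type match at -134, and no GATA match was present. The Rnase2a promoter held a C/EBP-type match at -217 and none of the other motifs. The promoter table held 6 of the 8 genes, all but Prg2 and Arg1. A STAT6-type match was found in 3 of these 6 (Retnla, Epx and Il5ra) and in 6.95% of 32851 promoters of the same length. C/EBP-type matches were found in 2 of 6 (Retnla and Rnase2a) and in 10.8% of promoters. GATA matches were found in 2 of 6 (Ccr3 and Il5ra) against 18.6%, and PU.1 cores in 2 of 6 (Retnla and Ccr3) against 23.8%. A match describes letters only and says nothing about binding.

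Arg1 encodes arginase, which turns arginine into ornithine and urea and so competes with nitric oxide synthase. In marrow-only mice it was nearly constant, at 6.01, 6.07, 6.38 and 5.88 with vehicle and from 6.05 to 6.18 in the 5 mice given ICA. With T cells, mice on vehicle had 7.06, 6.34, 7.59 and 7.55, and T cell mice given ICA had 5.81, 7.75, 6.57, 6.23 and 7.80. In each T cell group some mice thus stood more than 1 log2 unit above the marrow-only mice and others at their level. The difference with T cells was 1.06 ± 0.34 or 2.08-fold under vehicle (adjusted p = 0.131) and 0.73 ± 0.30 under ICA (adjusted p = 0.216), and neither passed. In a model of only the 2 vehicle groups Arg1 passed (adjusted p = 0.0276), as it did with arrays weighted by their quality (adjusted p = 0.0300).

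Ccr3 encodes the eotaxin receptor through which eosinophils are recruited. Its signal was 4.19, 4.31, 4.16 and 4.25 in marrow-only mice given vehicle and 4.64, 4.88, 4.39, 4.80 and 4.63 in those given ICA. It was 5.42, 4.63, 5.12 and 5.06 in T cell mice given vehicle and 4.68, 5.32, 4.65, 5.03 and 4.90 in T cell mice given ICA. The 4 marrow-only mice given vehicle were below all 14 other mice, and the other 3 groups overlapped. Under vehicle, Ccr3 rose with T cells by 0.83 ± 0.16 or 1.78-fold (adjusted p = 0.0123), and the call was kept in all 8 omissions of a mouse (adjusted p 0.00537 to 0.0391). Under ICA the difference between the arms was 0.25 ± 0.14 (adjusted p = 0.407). In marrow-only mice ICA went with a Ccr3 signal 0.44 ± 0.15 higher, without overlap and without passing (adjusted p = 0.615). The signal is low, and Ccr3 was not among the genes tested where those under the 25th percentile of mean signal were left out.

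The granule genes and the IL-5 receptor did not pass in any comparison. Epx encodes eosinophil peroxidase, and its group means ran from 5.50 ± 0.22 (SD, n = 5, marrow only with ICA) to 5.83 ± 0.23 (SD, n = 4, T cells with vehicle). Prg2 encodes major basic protein, the core of the granule, and its group means ran from 5.51 ± 0.18 (SD, n = 5, marrow only with ICA) to 5.70 ± 0.11 (SD, n = 4, T cells with vehicle). Il5ra, the IL-5-binding chain of the receptor for the eosinophil growth factor, had group means from 4.99 ± 0.07 (SD, n = 4, marrow only with vehicle) to 5.18 ± 0.20 (SD, n = 5, T cells with ICA). All 4 groups overlapped in each of these genes. Their differences with T cells were 0.13 ± 0.15, 0.07 ± 0.14 and 0.04 ± 0.14 under vehicle. Under ICA they were 0.16 ± 0.13, 0.13 ± 0.12 and 0.10 ± 0.13. The upper ends of the 95% intervals under vehicle were 0.44 for Epx, 0.36 for Prg2 and 0.34 for Il5ra. On this array scale the 1.74 measured for Rnase2a, which did not itself pass under vehicle, lay above them. The interval of Rnase2a ran from 0.14 to 3.34 and overlapped those of Epx, Prg2 and Il5ra, so no separation is shown. As the signals of Epx, Prg2 and Il5ra are low, their intervals do not bound a change in transcript number.

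Il4ra, the shared chain of the IL-4 and IL-13 receptors, is made by lymphocytes, myeloid cells and epithelium alike, and its signal was the highest of the group, at the 92.8th percentile of genes. Group means were 9.82 ± 0.15 (SD, n = 4) and 10.10 ± 0.16 (SD, n = 5) in marrow-only mice with vehicle and ICA. They were 9.85 ± 0.10 (SD, n = 4) and 9.71 ± 0.27 (SD, n = 5) in T cell mice with vehicle and ICA. Under ICA, Il4ra differed between the arms by -0.39 ± 0.11 with an adjusted p of 0.0537, just outside the threshold. T cell ICA mouse 1 had 9.29, the lowest value of the series. Without it the difference was -0.28 (adjusted p = 0.0975). It was -0.35 (adjusted p = 0.0110) without the 3 arrays that an earlier analysis had found to stand apart, which include that mouse. Il4ra passed in 7 of 11 alternative settings, with differences from -0.40 to -0.35.

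**Figure D2:**
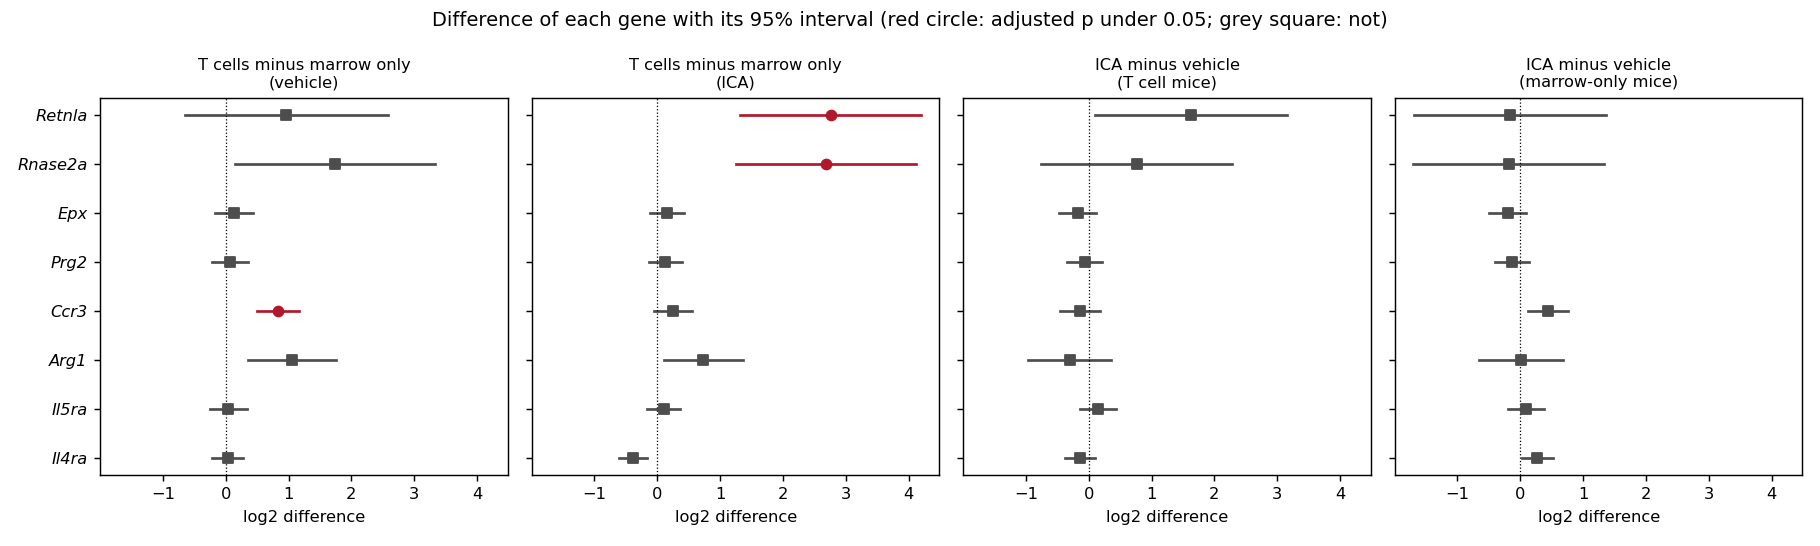
Difference of each gene (points, log2 units) with its 95% interval (lines) in the 4 comparisons, from 1 limma model over the 18 arrays. Red circles passed at an adjusted p under 0.05: Ccr3 for T cells under vehicle, and Retnla and Rnase2a for T cells under ICA.

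Across the comparisons, donor T cells under vehicle went with a rise of 1 of the 8 genes and a fall of 0, while 1.47% of all 22180 genes were called, 0.794% as higher and 0.681% as lower. At an unadjusted p under 0.05 there were 3 of 8, against 13.0% of all genes. All 8 differences were above 0, as were 51.9% of those of all genes, and the median was 0.48 against 0.01 over all genes. Epx, Prg2, Il5ra and Il4ra differed by only 0.13, 0.07, 0.04 and 0.03. Prg2, Il5ra and Il4ra turned sign in some omissions of a mouse, so the median does not describe each gene. Ranges did not overlap for 1 of the 8 (Ccr3), against 10.5% of all genes, 6.33% higher and 4.21% lower. Under ICA, T cells went with a rise of 2 of 8 and a fall of 0, against 3.12% of genes called, 1.05% as higher and 2.07% as lower. At an unadjusted p under 0.05 there were 4 of 8, against 16.6% of all genes. The median of the 8 was 0.20 against -0.01 over all genes, and 7 of 8 were higher, as were 47.6% of all genes. Ranges did not overlap for 2 of 8 (Retnla and Rnase2a), against 3.33% of all genes, 1.16% higher and 2.17% lower. These 2 comparisons use different mice, but each shares mice with the ICA comparisons that follow.

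ICA itself moved none of the 8 genes past the threshold. In T cell mice 0 of 8 passed in limma, where 0.0135% of all genes did, and 1 of 8 (Retnla) had an unadjusted p under 0.05 against 6.89% of genes. Ranges were apart for 0 of 8, against 2.89% of genes (1.11% higher, 1.78% lower). Retnla was 1.62 ± 0.73 higher with ICA, or 3.08-fold (adjusted p = 0.690). This value was 0.74 without T cell vehicle mouse 2 and 2.41 without T cell vehicle mouse 1. Rnase2a differed by 0.76 ± 0.73 and Arg1 by -0.31 ± 0.32, with intervals from -0.75 to 2.28 and from -0.97 to 0.36. In marrow-only mice 0 of 8 passed, against 0.00451% of genes, and Ccr3 and Il4ra had unadjusted p under 0.05 (7.52% of genes did), Il4ra with a difference of 0.27 ± 0.11. Ranges were apart for 1 of 8 (Ccr3), against 2.18% of genes (1.35% higher, 0.825% lower). Retnla, Rnase2a and Arg1 differed there by -0.17 ± 0.73, -0.18 ± 0.73 and 0.02 ± 0.32. The interaction, which asks whether the T cell effect depended on ICA, passed for 0 of 8 genes and for 0 of all genes in limma, and 2 of 8 (Ccr3 and Il4ra) had an unadjusted p under 0.05 against 6.68% of genes. It was -0.58 ± 0.21 for Ccr3, -0.42 ± 0.16 for Il4ra and 1.79 ± 1.04 for Retnla (adjusted p = 0.710, 0.710 and 0.790). That a gene passed in only 1 treatment therefore does not show that its T cell effect differed between the treatments. For ICA in either arm and for the interaction, the count of the 8 genes that passed was 0 in all alternative settings as well.

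From mouse to mouse, Retnla and Rnase2a moved together. As deviations from the group means over the 18 mice, which removes the differences between groups, they had a Pearson r of 0.77 (permutation p = 3.0e-05) and a Spearman rho of 0.80 (permutation p = 4.0e-05). Adjusted over the 28 pairs of the 8 genes, these p were 0.000840 and 0.00112, and r was 0.63 without the 2 mice farthest out in Retnla. It was the 1 pair of 28 that passed. Without the 3 arrays that stood apart r was 0.78 (permutation p = 0.00155, adjusted p = 0.0434) and rho 0.71, which no longer passed (permutation p = 0.00357, adjusted p = 0.100). Among the 9 T cell mice alone r was 0.87 and rho 0.93 (exact permutation p = 0.000694 for each, adjusted p = 0.0194 for each), and r was 0.93 without the 2 farthest mice. Among the 9 marrow-only mice r was 0.60 and rho 0.67 (exact permutation p = 0.0194 and 0.0302, adjusted p = 0.272 and 0.344), and 0 of 28 pairs passed. Among T cell mice the order of the mice was nearly shared: T cell ICA mouse 5 was highest in both genes, T cell vehicle mouse 1 and T cell ICA mouse 2 followed, and T cell vehicle mouse 2 was lowest in both. Rnase2a and Arg1 had r = 0.82 over 18 mice and Retnla and Arg1 r = 0.55 (permutation p = 0.0192 and 0.0278, adjusted p = 0.179 and 0.193), which did not pass. Their rho was 0.69 and 0.59 (permutation p = 0.0305 and 0.0138, adjusted p = 0.213 and 0.129), and r without the 2 farthest mice was 0.67 and 0.57. The spread that these values rest on was mostly that of the T cell mice, since the signals of Rnase2a and Arg1 hardly varied in marrow-only mice. For Rnase2a those marrow-only signals were low.

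Epx had no correlation with either gene that passed. With Retnla its r was 0.24 and its rho 0.12 over 18 mice (permutation p = 0.369 and 0.660, adjusted p = 0.689 and 0.840), and r was -0.13 without the 2 farthest mice. Without the 3 arrays that stood apart r was 0.63 and rho 0.56 (permutation p = 0.0153 and 0.0352, adjusted p = 0.214 and 0.246), and 0.44 without the 2 farthest mice. Among the 9 T cell mice r was 0.56 and rho 0.45 (exact permutation p = 0.219 and 0.301, adjusted p = 0.410 and 0.603), and r was -0.28 without the 2 farthest. Epx and Rnase2a had r = 0.02 and rho = -0.02 over 18 mice (permutation p = 0.934 and 0.954, adjusted p = 0.934 and 0.988), and r = 0.12 without the 2 farthest. The relation of Epx to Retnla thus depended on which mice were included. Prg2 and Il5ra had r = 0.61 over 18 mice and rho = 0.63 (permutation p = 0.0106 and 0.00941, adjusted p = 0.149 and 0.129), with r = 0.58 without the 2 farthest mice, and their values span less than 1 log2 unit.

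**Figure D3:**
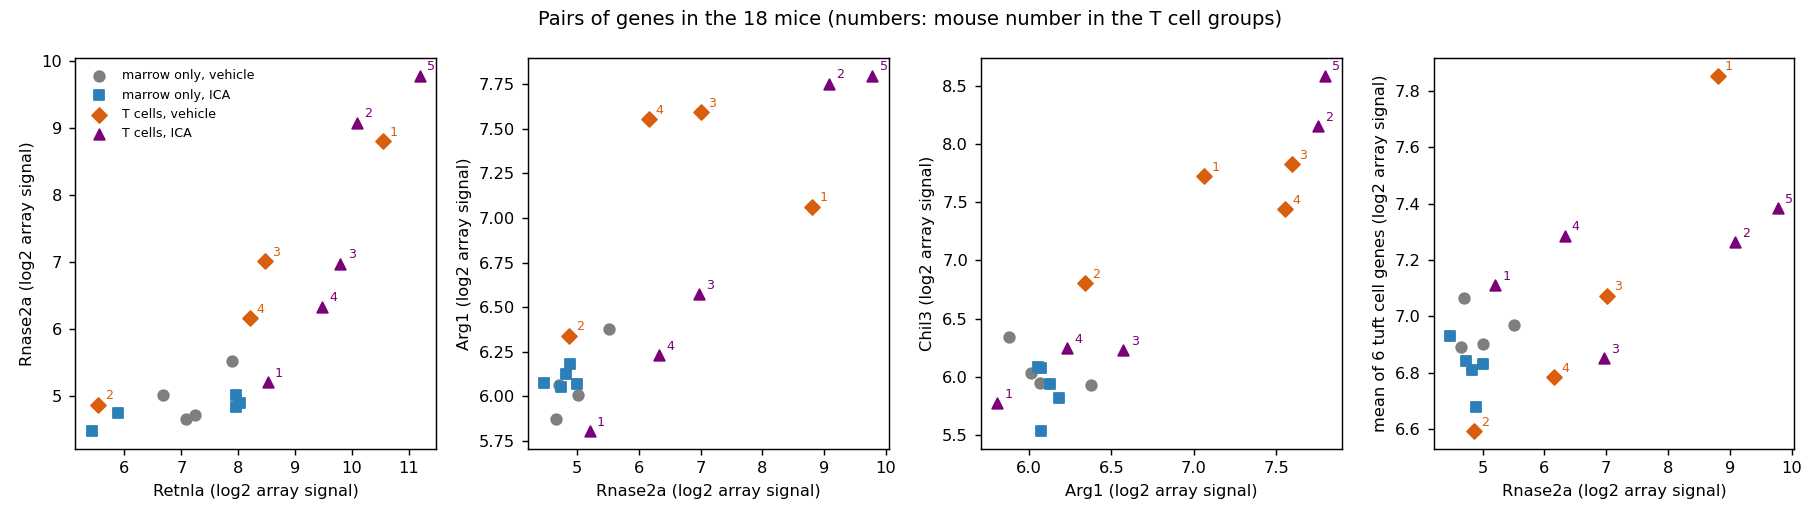
Each point is 1 of the 18 mice, with log2 array signal on both axes for Rnase2a against Retnla, Arg1 against Rnase2a, Chil3 against Arg1, and the mean of 6 tuft cell genes against Rnase2a. Colour and shape give the group and numbers the T cell mice. T cell ICA mice 2 and 5 and T cell vehicle mouse 1 lie at the upper right for Retnla and Rnase2a, and T cell vehicle mouse 2 lies with the marrow-only mice.

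The genes whose pattern was most alike were found by the Pearson r of deviations from the group means over the 18 mice, among all genes. For Arg1 these were Chil3 (r = 0.88), Jdp2 (r = 0.87) and Slc7a2 (r = 0.84). Chil3 encodes the chitinase-like protein Ym1 of alternatively activated macrophages, and Slc7a2 encodes a transporter that brings arginine into cells. For Rnase2a they were Il17rb (r = 0.86), a chain of the IL-25 receptor, Chil3 (r = 0.84) and Nrgn (r = 0.84). For Retnla they were Alox5ap (r = 0.83), the protein that hands arachidonic acid to the enzyme of leukotriene synthesis, Nps (r = 0.81) and Plxdc2 (r = 0.81). Il4ra was closest to the leukocyte genes Lsp1 (r = 0.91) and Adam8 (r = 0.90) and to Gadd45b (r = 0.89). Ccr3 was closest to Spib (r = 0.87), a transcription factor of B cells and other immune cells, and to Tmem141 (r = 0.85) and Napepld (r = 0.84). For the genes of low signal the nearest were Olfr136 (r = 0.88), 0610040B10Rik (r = 0.83) and E230016K23Rik (r = 0.82) for Epx. Those for Prg2 were Osbp2 (r = 0.84), Orm3 (r = 0.83) and Irx5 (r = 0.81), and those for Il5ra were Mlxip, Herpud1 and Grik2 (r = 0.79 each). Members of the 8 were also candidates in this search, and none was among the nearest 3 of another. The nearest of so many candidates have a high r by selection alone, so these values are a description.

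Chil3 was 7.72, 6.81, 7.83 and 7.44 in T cell mice given vehicle and 5.77, 8.15, 6.23, 6.25 and 8.59 in those given ICA. Its marrow-only values lay between 5.53 and 6.34, so all T cell mice given vehicle, but only 2 of 5 given ICA, stood clearly above them. With T cells it differed by 1.38 ± 0.44 under vehicle and 1.11 ± 0.39 under ICA (adjusted p = 0.122 and 0.137). Slc7a2 rose under ICA by 0.60 ± 0.13 (adjusted p = 0.0137) and differed by 0.50 ± 0.15 under vehicle (adjusted p = 0.0966). Nos2, inducible nitric oxide synthase, which uses the same arginine as arginase, fell with T cells under ICA by 1.92 ± 0.28 (adjusted p = 0.000601). Its difference under vehicle was -1.09 ± 0.31 (adjusted p = 0.0870). Among all 11 measured genes of arginine metabolism besides Arg1, Slc7a2 and Nos2 were the 2 that passed under ICA, and 0 passed under vehicle, where 5 had an unadjusted p under 0.05. The median difference of those 11 was -0.10 under vehicle and -0.03 under ICA.

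Of 20 other genes listed under alternative activation, which are not all specific to it, 2 rose and 0 fell with T cells under vehicle. Under ICA 1 rose and 1 fell. Mrc1, the macrophage mannose receptor, rose by 0.95 ± 0.16 under vehicle and 0.87 ± 0.14 under ICA (adjusted p = 0.00386 and 0.00135). The other riser under vehicle was Retnlg, named above as a neutrophil product, so its call is not particular to alternative activation. Mrc1 had no overlap with marrow-only mice under either treatment, while Retnla overlapped under vehicle but not under ICA. Under ICA the lowest Mrc1 value with T cells was 7.86 and the highest marrow-only value 7.82. Socs3, a brake on cytokine signalling, fell under ICA by 1.38 ± 0.21 (adjusted p = 0.000640). The median difference of the 20 genes was 0.09 under vehicle and 0.15 under ICA. With ICA against vehicle 0 of the 20 passed in either arm, and 2 in T cell mice and 1 in marrow-only mice had an unadjusted p under 0.05.

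Of the other eosinophil genes, 17 of 21 were measured and 0 passed in limma in the 4 group comparisons. Unadjusted p were under 0.05 for 5 of the 17 with T cells under vehicle (13.0% of all genes), 2 with T cells under ICA (16.6%), 2 with ICA in T cell mice (6.89%) and 2 with ICA in marrow-only mice (7.52%). The unadjusted counts of the other lists read against the same shares. The smallest p with T cells was that of Alox15, a lipoxygenase, under vehicle (0.89 ± 0.26, adjusted p = 0.0986) and that of Ltc4s, leukotriene C4 synthase, under ICA (0.36 ± 0.11, adjusted p = 0.0663). Prg3, a homologue of major basic protein, differed by -0.09 ± 0.12 and -0.10 ± 0.10. Siglecf, a sialic acid receptor of eosinophils that tuft cells also carry, differed by 0.06 ± 0.29 and 0.32 ± 0.26.

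The signals that draw and feed eosinophils were led by chemokines that also attract T cells and monocytes. Of 9 attractants and growth factors, 3 rose with T cells under vehicle and 4 under ICA, and 0 fell. Ccl3, Ccl5 and Ccl8 rose in both, by 2.41 ± 0.35, 2.16 ± 0.31 and 1.42 ± 0.32 under vehicle and 1.46 ± 0.31, 1.35 ± 0.28 and 1.29 ± 0.29 under ICA. Ccl11, eotaxin, the main ligand of CCR3, rose under ICA by 0.45 ± 0.12 (adjusted p = 0.0457) and differed by 0.10 ± 0.13 under vehicle (adjusted p = 0.837). Ccl24, eotaxin-2, differed by 0.73 ± 0.41 and 0.68 ± 0.37 (adjusted p = 0.486 and 0.374). Il5 itself differed by -0.02 ± 0.15 under vehicle and 0.24 ± 0.14 under ICA. With ICA against vehicle 0 of the 9 passed in either arm, and 0 had an unadjusted p under 0.05.

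Of the type 2 cytokines and their signalling chains, 20 of 22 were measured and 0 passed in limma in the 4 group comparisons. Unadjusted p were under 0.05 for 1 with T cells under vehicle, 3 with T cells under ICA, 1 with ICA in T cell mice and 0 with ICA in marrow-only mice. Il4 differed with T cells by 0.17 ± 0.14 under vehicle and 0.16 ± 0.12 under ICA, and Il13, which like Il4 acts through Il4ra, by 0.06 ± 0.12 and 0.26 ± 0.11. Il33, an alarm cytokine of stromal cells and epithelium, differed by 0.19 ± 0.14 and 0.13 ± 0.12. The smallest p under ICA was that of Il13ra2, a decoy receptor for IL-13 (0.34 ± 0.12, adjusted p = 0.121).

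Among markers of other cell types, some macrophage, mast cell, smooth muscle, T cell, B cell and enterocyte genes passed between the arms. The listed neutrophil, basophil, innate lymphoid and goblet cell genes did not. Retnlg, a neutrophil product that rose with T cells under vehicle, was not on the neutrophil list. Of 12 macrophage genes 3 rose with T cells under vehicle and 1 under ICA, and their mean log2 signal ran from 8.81 to 9.20 in T cell mice given vehicle against 8.39 to 8.72 in marrow-only mice given vehicle. Under ICA it ran from 8.75 to 9.16 against 8.42 to 9.01. Of 10 mast cell genes 2 fell with T cells under vehicle, and 0 passed under ICA, where 2 had an unadjusted p under 0.05. Their mean ran from 5.18 to 5.68 in T cell mice given vehicle, 5.56 to 6.05 in T cell mice given ICA, 5.79 to 6.00 in marrow-only mice given vehicle and 5.34 to 6.17 in those given ICA. Of 7 smooth muscle genes 6 rose with T cells under ICA and 0 passed under vehicle, where 6 had an unadjusted p under 0.05. Their mean ran from 10.80 to 11.21 in T cell mice given ICA against 10.48 to 10.69 in marrow-only mice given ICA, without overlap. Of 12 neutrophil genes 0 passed in either comparison, 6 having an unadjusted p under 0.05 under vehicle and 1 under ICA. Of 8 T cell genes 4 rose under vehicle, and 2 rose and 1 fell under ICA, while of 7 B and plasma cell genes 2 fell under vehicle and 3 under ICA. Of 4 basophil genes and of 6 genes of group 2 innate lymphoid cells 0 passed in either, with unadjusted p under 0.05 for 3 of the latter under ICA. Of 7 goblet cell genes 0 passed, with 0 and 2 at an unadjusted p under 0.05, and of 8 ileal enterocyte genes 0 passed under vehicle (1 unadjusted) and 1 fell under ICA (4 unadjusted). Under ICA 6 of these 8 enterocyte genes were higher with T cells and 2 lower, with a median difference of 0.22. The part of these cells in the rises of Retnla, Rnase2a and Ccr3 was not tested.

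Tuft cell genes are given by mouse beside Rnase2a, with no correlation computed. The mean of the 6 tuft genes (Pou2f3, Dclk1, Trpm5, Il25, Gfi1b and Avil) was 7.85, 6.59, 7.07 and 6.78 in T cell mice given vehicle and 7.11, 7.26, 6.85, 7.29 and 7.38 in those given ICA. It lay between 6.68 and 7.06 in the 9 marrow-only mice. T cell vehicle mouse 1, high in Retnla and Rnase2a, was highest in the series, and T cell vehicle mouse 2, low in both, was lowest. Other mice were placed differently: ICA mouse 4 had a tuft mean of 7.29 and a Rnase2a signal of 6.33, and ICA mouse 1 had 7.11 and 5.20. Siglecf showed the same extremes, with 7.75, 5.69, 6.56 and 6.29 in T cell mice given vehicle. Those given ICA had 6.50, 7.11, 6.13, 6.78 and 7.13. ICA mouse 3, at 6.13, was below all 9 marrow-only mice in Siglecf, with a Rnase2a signal of 6.97. Il17rb, the gene most alike to Rnase2a, was 7.57, 6.16, 6.93 and 6.47 in T cell mice given vehicle. It was 6.39, 7.67, 6.35, 6.76 and 7.40 in those given ICA. Il25, whose product IL-25 is a ligand of the receptor that contains Il17rb, differed with T cells by -0.01 ± 0.11 under vehicle and 0.003 ± 0.10 under ICA (adjusted p = 0.987 and 0.993). As a group comparison 0 of the 6 tuft genes passed with T cells, with a lowest adjusted p of 0.643 under vehicle and 0.184 under ICA, and 0 and 2 had an unadjusted p under 0.05. These mice were seen to differ after the values were known, and the part of tuft cells in the variation of Retnla and Rnase2a was not tested.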

How the data were processed

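Total RNA of the ileum was hybridised to Affymetrix whole-transcript arrays, 1 per mouse. The deposited values are taken as log2, normalised by RMA over the 18 arrays. Per the submitters' processing notes, Partek, GenomeStudio and RMA were used. Which filters and log base were used is not stated in the sources at hand. Of 41345 probe sets, 23521 had 1 gene symbol and 1814 several in the platform annotation, and 16010 were unnamed. The probe set with 1 symbol and the highest mean stood for a gene (22180 genes). Array medians over these genes ran from 6.82 to 6.93, and arrays correlated with r between 0.978 and 0.993. The number of arrays limits the precision.

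One model with 4 group means was fitted with limma 3.58.1 in R 4.3.3 (trended prior variance, 14 residual and 6.1 prior degrees of freedom) and tested on simulated data. P-values are two-sided and adjusted by Benjamini-Hochberg over all genes of a comparison, with a gene called at 0.05. Lists were described by counts and medians. Pairs of genes were compared over deviations from group means, with 100000 permutations of mice within groups, or all 2880 arrangements within an arm.

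The 8 genes and the 16 other lists (158 of 170 genes measured) were chosen with earlier results of these data known. Beyond the 8, genes were named where a list held calls (up to 4) or by smallest p, from a set of reference genes, and as the 3 most alike to a member. Rnase2b, Ear10 and Ear14 under either treatment and the values of tuft genes, Siglecf, Chil3 and Il17rb by mouse were chosen after they were seen. Alternatives were a model restricted to the compared pair, a replicate block, each mouse left out, 3 arrays left out, quantile and median scaling, 2 filters, means of probe sets, other priors and array weights. Figures were drawn with matplotlib 3.10.9.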

Additional observations from a re-analysis of the deposited data

Results flagged for a closer look

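Of the 32 sets formed by 8 genes and 4 groups, 1 held a value far from its group. Prg2 in marrow-only mice given vehicle was 5.36 in mouse 4, while the other 3 mice lay between 5.69 and 5.75. The gap to the nearest mouse was 0.845 of the range of the group, above the limit of 0.829 for 4 samples. Chance flags about 1 in 20 such sets.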

How the results depend on the processing

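The count of the 8 genes called with T cells under vehicle was 1, and it was 2 with only the compared groups, 2 with array weights, and 0 with each filter on low values, which left Ccr3 untested. It was 1 in each omission of a mouse. Under ICA the count was 2. It was 1 with only the compared groups, and 1 with the robust prior, where the gene called was Il4ra, as a fall. With the fall of Il4ra added it was 3 without the 3 arrays that stood apart, with median centring, each filter or array weights. It ran from 0 to 3 when a mouse was left out. In the other comparisons the count stayed at 0 when a mouse was left out (0 to 0). The 1 pair of genes that passed became 6 of 28 pairs when group means were kept, and stayed 1 by Pearson r without the 3 arrays that stood apart.

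Differences turned sign in 8 cases with a changed setting, none of which had passed. With T cells under vehicle, Il4ra was -0.026 without the 3 arrays and -0.0056 centred on array medians. With ICA in marrow-only mice, Arg1 was -0.10 with the replicate block and -0.00075 centred on medians, and Retnla was 0.46 and Rnase2a 0.075 without the 3 arrays. In the interaction, Prg2 was -0.10 and Il5ra -0.0027 without the 3 arrays. The cause was not tested. Leaving out a mouse also turned signs of differences that had not passed. With T cells under vehicle, Prg2 ran from -0.020 to 0.12, Il5ra from -0.018 to 0.15 and Il4ra from -0.026 to 0.090. With ICA in T cell mice, Prg2 ran from -0.16 to 0.025. With ICA in marrow-only mice, Retnla ran from -0.41 to 0.24 and Arg1 from -0.051 to 0.12. In the interaction, Epx ran from -0.11 to 0.11, Prg2 from -0.030 to 0.15 and Il5ra from -0.044 to 0.13.

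Mouse numbers are shared between groups. Deviations of same-numbered mice correlated with r from -0.14 to 0.20 (median 0.0019), and for 2 of 18 mice the best match in another group had the same number. No link between same-numbered mice was seen in these values, which cannot exclude one. The labels give the number only as that of a biological replicate. With the replicate block Retnla under ICA was 2.76 with an adjusted p of 0.0518, Il4ra had 0.0442, and the count stayed 2. The 3 arrays were mouse 3 of marrow only with vehicle and mouse 1 of each ICA group, taken from an earlier analysis of these data. Arrays of 4 or 5 mice a group limit what can be detected. The signals of Ccr3, Il5ra, Epx and Prg2 are low, as are those of Rnase2a in marrow-only mice.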
